A study of Mus musculus with 16 samples.

Results

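The cytochrome P450 genes of mouse colonic epithelial cells were taken as all genes whose symbol begins with Cyp followed by a digit and that have a probe set of their own on the array. There were 87 such genes among the 19938 genes tested, each with 1 probe set, and 3 of them (Cyp2d13, Cyp2d37-ps and Cyp4f41-ps) are transcribed pseudogenes in RefSeq. The 26 genes whose mean over the 16 arrays reached a log2 intensity of 7 are described singly, and the 61 below it mainly by count. They were selected on that mean, which is given as a description only. The closest genes on either side were Cyp2d10 with a mean of 7.15, inside, and Cyp26b1 with 6.999 and Cyp2d9 with 6.853, outside.

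The study crossed C57BL/6 mice that had or lacked Pigr, the receptor that carries secretory IgA (SIgA) across epithelia. Pups of Pigr+/- dams took up SIgA with milk (passive SIgA) and pups of Pigr-/- dams did not. Pigr+/- offspring could transport SIgA of their own (active SIgA) and Pigr-/- offspring could not, so that the offspring fell into groups with both forms, passive only, active only or neither. No group was Pigr+/+: the animals with active SIgA were heterozygous. At 70 days of age, gender-matched mice of each of the 4 SIgA groups either stayed untreated or drank 2% dextran sulfate sodium (DSS), a detergent-like polymer that injures the colonic lining, for 8 days. Each of the 8 groups had 2 arrays, and each array held RNA pooled from 3 mice.

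P450 enzymes are heme proteins of the endoplasmic reticulum and mitochondria that insert oxygen into lipids and foreign chemicals, with electrons handed on by reductases and cytochrome b5. Families are numbered by the likeness of their proteins. Members of the Cyp1, Cyp2 and Cyp3 families mostly act on foreign chemicals and fatty acids, members of the Cyp4 family on fatty acids and eicosanoids such as leukotrienes, and members of the higher-numbered families on sterols, bile acids, steroid hormones, retinoic acid or vitamin D. The gut lining is, beside the liver, a main site where foreign chemicals from food first meet these enzymes.

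All values are log2 intensities as deposited, and a difference of 1 is a doubling. A level of 1 probe set is not compared with that of another, because probe sets differ in brightness. The level of Pigr was 12.18 to 12.46 on the 8 arrays of Pigr+/- offspring and 11.34 to 11.70 on the 8 arrays of Pigr-/- offspring, which did not overlap. The sources used here do not say whether this probe set lies within the deleted part of the gene. Of the markers of colonic epithelium, all 15 that were measured had means of 7 or more. The untreated group with both forms of SIgA stood apart: on both of its arrays 7.79% of all genes, and 14.0% of genes with a mean under 7, were above the other 14 arrays. Among the 61 dim P450 genes this held for 10. For P450 genes with a probe set of their own, the averaged DSS effects, the SIgA effects and the interactions of DSS with 1 form of SIgA are therefore also given without it. DSS effects within that group and the three-way term cannot be had without it. The averaged DSS effect is then the mean over the other SIgA groups, so the DSS arrays with both forms leave that mean as well.

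DSS effects were first taken as the mean over SIgA groups and tested with limma across all genes, a gene being called at a Benjamini-Hochberg adjusted p under 0.05. Of the 26 P450 genes with a mean of 7 or more, 10 fell and 2 rose, which is 46.2% of them, beside 18.4% called among the 9987 genes of that brightness (7.89% lower and 10.5% higher) and 13.1% of all genes. Over all 87 P450 genes, 15 fell and 3 rose (20.7%). The median change of the 26 was -0.17, beside 0.031 over all genes of that brightness. In bulk samples such as these, fewer cells of a type and less RNA per cell cannot be told apart. For each of the 12 genes called among the 26, the change had the same sign in 4 of 4 SIgA groups. The genes were called on the mean of these same 4 changes, so agreement in sign is partly built in. It also counts changes near 0, such as -0.01 ± 0.23 for Cyp2d12 with both forms.

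**Figure D1:**
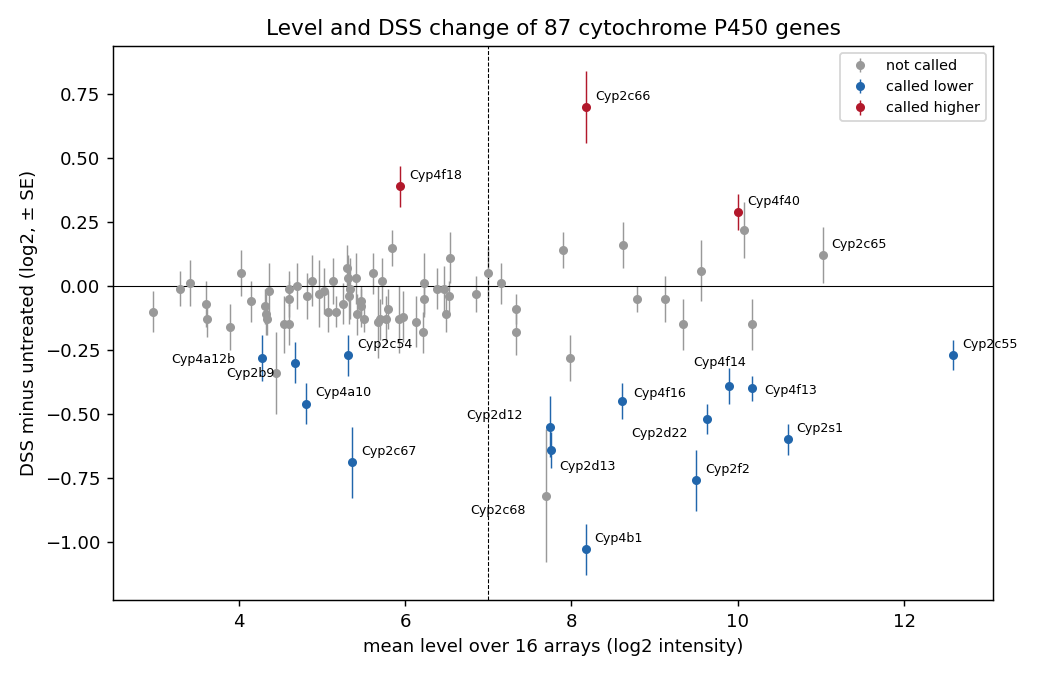
Mean level over the 16 arrays (x axis, log2 intensity) against the mean DSS effect of the 4 SIgA groups (y axis, log2, bars ± SE) for the 87 P450 genes, with the dashed line at a mean of 7. To the right of the line 10 genes were called lower (blue) and 2 higher (red), from -1.03 for Cyp4b1 to 0.70 for Cyp2c66.

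Markers of other cells moved with the treatment. Of 12 neutrophil markers 9 rose, and their mean per array went from 5.84 to 6.26 untreated to 6.53 to 7.21 with DSS. Of 12 monocyte and macrophage markers 6 rose, with array means of 5.86 to 6.23 untreated and 6.31 to 6.56 with DSS. Of the 15 colonic epithelium markers 5 fell (Aqp8, Hoxb13, Slc26a3, Car4 and Krt18), and their array means were 12.29 to 12.45 untreated and 12.05 to 12.28 with DSS. Of 10 stromal markers 2 rose, Dcn (0.78 ± 0.13, adjusted p = 0.0018) and Vim (0.81 ± 0.10, adjusted p = 0.00015), with array means of 6.62 to 7.30 untreated and 6.99 to 7.32 with DSS. Of 6 B and plasma cell markers 1 fell, Igha (-0.61 ± 0.14, adjusted p = 0.0143). Of 9 genes on the hepatocyte list Ttr (-1.30 ± 0.10), Cps1 and Alb fell and Tat rose, and of 10 on the small intestine list Sis and Rbp2 fell. None of 6 smooth muscle, 6 T cell and 6 endothelial markers was called. The share that these shifts in the cells sampled had in the P450 changes was not tested. Epcam and Cdh1, which mark all epithelial cells, were not called, with changes of 0.04 ± 0.06 (SE) and -0.08 ± 0.05. Krt18, of the same list, changed by -0.20 ± 0.06 (adjusted p = 0.0444 in limma).

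Without the untreated group that stood apart, the mean is over the other SIgA groups, so the DSS arrays with both forms drop out of it too. In that fit 9 of the 26 fell and 1 rose, beside 9.87% called among all genes of that brightness (5.45% lower and 4.43% higher). Cyp2c55 then changed by -0.19 (adjusted p = 0.231) and Cyp4f40 by 0.26 (adjusted p = 0.135). Replicate 1 of the untreated active-only group also stood high over the dim P450 genes, the only dim genes for which its level was taken. Its mean over the 61 dim P450 genes was 5.39, the highest of all arrays, beside 5.33 and 5.30 in the group that stood apart. With replicate 1 of the untreated active-only group also left out, 9 P450 genes of that brightness were called lower and none higher, beside 8.82% of all genes of that brightness (5.26% lower and 3.56% higher), and Cyp2c66 changed by 0.70 (adjusted p = 0.0545).

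The Cyp4 family had 16 measured genes, 5 of them with a mean of 7 or more, of which 4 fell and 1 rose. Cyp4b1, which hydroxylates fatty acids and activates some plant toxins, ran from 8.27 through a median of 8.60 to 9.14 on the 8 untreated arrays and from 7.16 through 7.62 to 8.26 on the 8 DSS arrays. The conditions did not overlap, though the highest DSS array lay just under the lowest untreated one. The difference was -1.03 ± 0.10 (SE, adjusted p = 1.35e-05), a 2.04-fold lower level.

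The Cyp4f subfamily holds hydroxylases that inactivate leukotriene B4, an attractant of neutrophils, and related fatty acids. Cyp4f13 measured 10.25, 10.35 and 10.52 (lowest, median and highest) untreated and 9.91, 9.96 and 10.06 with DSS, a change of -0.40 ± 0.05 (adjusted p = 0.000136). Cyp4f14, its neighbour on chromosome 17, measured 9.83, 10.07 and 10.43 untreated and 9.45, 9.71 and 9.84 with DSS, a change of -0.39 ± 0.07 (adjusted p = 0.00344). Cyp4f13 separated the conditions fully, and for Cyp4f14 7 of the 8 DSS arrays lay below every untreated array.

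Cyp4f16, a further member on the same chromosome, measured 8.47, 8.84 and 9.08 untreated and 8.28, 8.36 and 8.52 with DSS, a change of -0.45 ± 0.07 (adjusted p = 0.00125). Here 6 DSS arrays lay below every untreated array. Cyp4f40 went the other way, with 9.57, 9.86 and 10.13 untreated and 9.95, 10.13 and 10.38 with DSS, a change of 0.29 ± 0.07 (adjusted p = 0.0223). Its conditions overlapped, and 4 DSS arrays lay above every untreated one. The Cyp4f40 call was lost in 6 of the 16 fits that left out 1 array, with changes of 0.24 to 0.28 and adjusted p of 0.0522 to 0.0607. Those arrays were DSS replicate 2 of the group with both forms, untreated replicate 2 and DSS replicate 2 of passive only, DSS replicate 1 of active only, and untreated replicate 1 and DSS replicate 1 of neither. It was also lost, at an adjusted p of 0.0504, when each array was centred on its median.

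**Figure D2:**
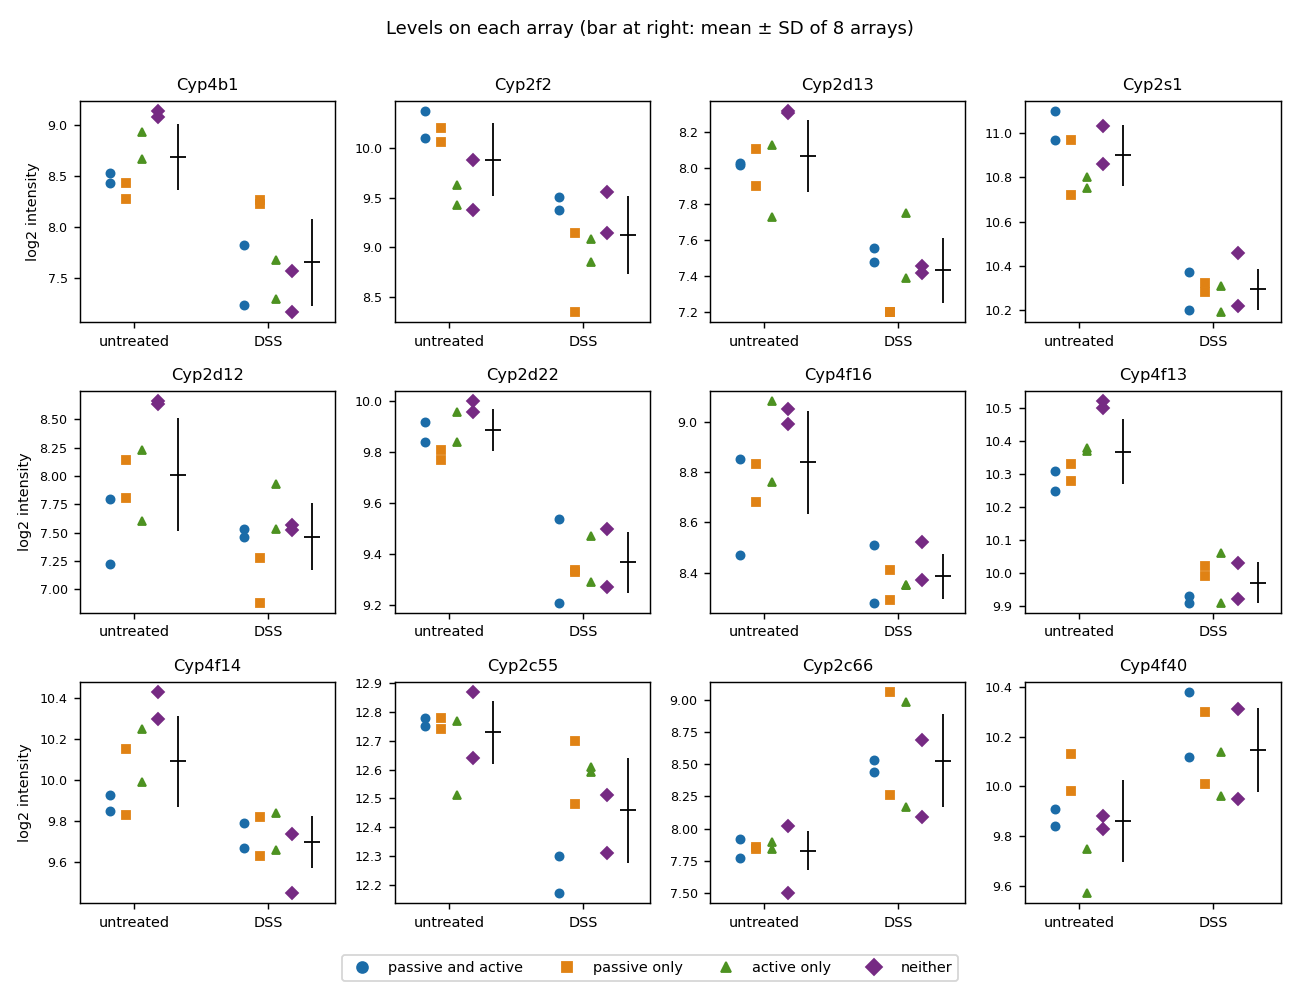
Log2 intensity on each of the 16 arrays for the 12 P450 genes of mean 7 or more that were called for DSS, untreated at left and DSS at right, with 1 symbol per SIgA group and the mean ± SD of 8 arrays as a bar. Cyp4b1, Cyp2s1, Cyp2d22, Cyp4f13 and Cyp2c66 show no overlap between conditions; the other 7 genes overlap.

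The Cyp2 family was the largest, with 45 genes, 16 of them with a mean of 7 or more, of which 6 fell and 1 rose. Cyp2s1, a P450 of epithelia outside the liver, measured 10.72, 10.91 and 11.10 untreated and 10.19, 10.30 and 10.46 with DSS. The conditions did not overlap, and the change was -0.60 ± 0.06 (adjusted p = 4.33e-05). Cyp2f2, best known for activating naphthalene in the mouse airway, measured 9.38, 9.97 and 10.37 untreated and 8.35, 9.14 and 9.56 with DSS, with 5 DSS arrays below every untreated array. Its change was -0.76 ± 0.12 (adjusted p = 0.000941).

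The Cyp2d genes, relatives of the human drug-metabolising enzyme CYP2D6, lie in a cluster on chromosome 15. The subfamily had 10 measured genes and 8 with a mean of 7 or more, of which 3 fell and none rose. Cyp2d22 measured 9.77, 9.88 and 10 untreated and 9.21, 9.33 and 9.54 with DSS, without overlap, a change of -0.52 ± 0.06 (adjusted p = 0.000143). The pseudogene Cyp2d13 measured 7.73, 8.07 and 8.32 untreated and 7.20, 7.44 and 7.75 with DSS, with 7 DSS arrays below every untreated one and a change of -0.64 ± 0.07 (adjusted p = 7.72e-05).

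Cyp2d12 spread more widely, with 7.22, 7.98 and 8.66 untreated and 6.88, 7.53 and 7.93 with DSS. Only 1 DSS array lay below all untreated arrays, and the change was -0.55 ± 0.12 (adjusted p = 0.0066). The other 5 Cyp2d genes of that brightness were not called. Their changes were -0.18 ± 0.09 for Cyp2d40, -0.15 ± 0.10 for Cyp2d34, -0.09 ± 0.06 for the pseudogene Cyp2d37-ps, 0.01 ± 0.08 for Cyp2d10 and 0.06 ± 0.12 for Cyp2d26. Genes of this cluster are close copies, so that their probe sets may take up RNA of one another.

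**Figure D3:**
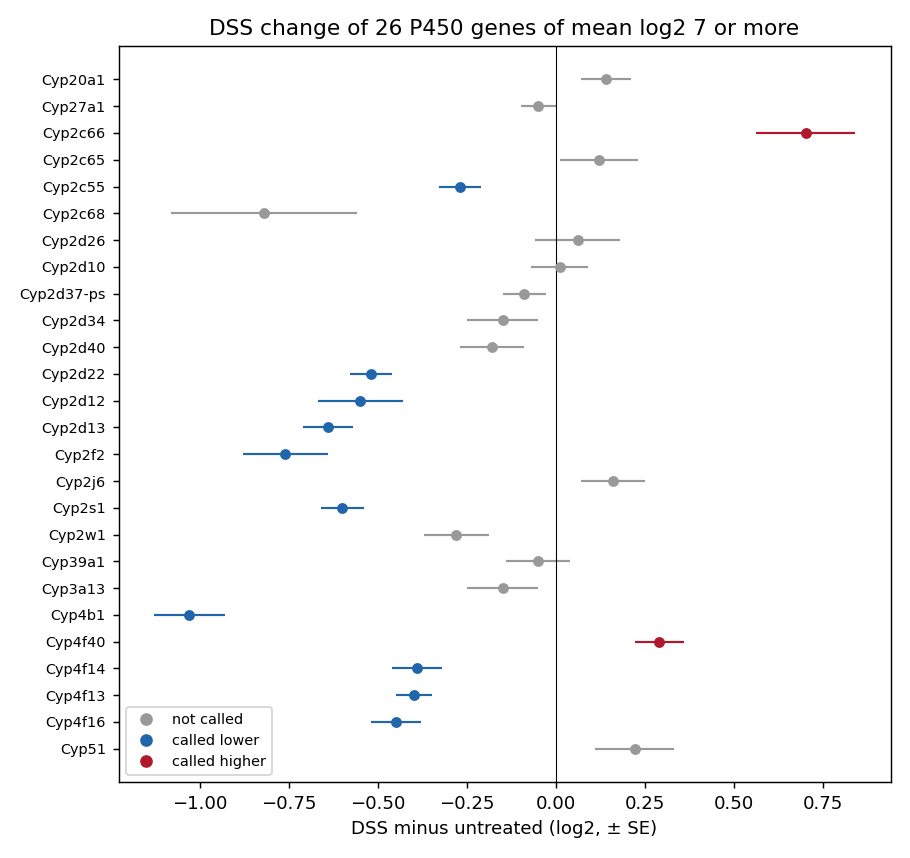
Mean DSS effect of the 4 SIgA groups (x axis, log2, bars ± SE) for the 26 P450 genes of mean 7 or more, ordered by subfamily. Of the Cyp2d genes 3 of 8 were called lower, of the Cyp4f genes 3 of 4 lower and 1 higher, and of the Cyp2c genes 1 lower and 1 higher.

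The Cyp2c genes, epoxygenases and hydroxylases of arachidonic acid and of many drugs, lie on chromosome 19, where Cyp2c55, Cyp2c65 and Cyp2c66 follow one another. Their changes with DSS were -0.27, 0.12 and 0.70, so the windows before their start sites are shown together with that of Cyp2c68, which lies between Cyp2c67 and Cyp2c40 and changed by -0.82. Each is the 250 bases before the start in RefSeq's GRCm38.p6, at chr19:39006769-39007018 (plus strand), chr19:39060756-39061005 (plus strand), chr19:39113648-39113897 (plus strand) and chr19:39741102-39741351 (minus strand), written 5′ to 3′ along the gene. Capitals mark matches, on either strand, to any of 3 motifs. The TATA box, which in many promoters lies a short way before the start site, reads TATAAA. The core element bound by the receptor for dioxin, Ahr, reads GCGTG. The element of the nuclear receptor Hnf4 reads CAAAGTCCA.
Cyp2c55: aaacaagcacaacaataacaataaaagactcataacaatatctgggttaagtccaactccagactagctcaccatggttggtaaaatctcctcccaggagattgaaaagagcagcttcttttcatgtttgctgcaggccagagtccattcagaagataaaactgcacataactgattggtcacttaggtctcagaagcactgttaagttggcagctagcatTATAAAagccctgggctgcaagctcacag
Cyp2c65: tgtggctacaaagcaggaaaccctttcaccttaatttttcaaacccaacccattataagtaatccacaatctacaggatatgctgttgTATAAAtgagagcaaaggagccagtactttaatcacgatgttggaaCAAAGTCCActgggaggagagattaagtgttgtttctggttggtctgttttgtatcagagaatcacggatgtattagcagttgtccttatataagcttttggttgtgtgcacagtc
Cyp2c66: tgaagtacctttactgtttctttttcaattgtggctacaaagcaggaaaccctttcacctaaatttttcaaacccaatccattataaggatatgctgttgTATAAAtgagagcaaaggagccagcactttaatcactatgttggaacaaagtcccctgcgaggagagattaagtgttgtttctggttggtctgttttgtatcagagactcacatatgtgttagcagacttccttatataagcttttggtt
Cyp2c68: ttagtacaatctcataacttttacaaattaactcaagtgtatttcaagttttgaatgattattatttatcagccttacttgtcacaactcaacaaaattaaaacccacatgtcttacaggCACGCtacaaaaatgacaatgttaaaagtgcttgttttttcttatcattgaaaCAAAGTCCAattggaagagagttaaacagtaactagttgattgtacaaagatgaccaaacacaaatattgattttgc

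The windows of Cyp2c65 and Cyp2c66 were alike, with 208 identical bases over 279 aligned columns (74.6%). The window of Cyp2c55 shared 51.8% with that of Cyp2c65 and 45.4% with that of Cyp2c66. In the same alignment, pairs that include the window of Cyp4b1 or Cyp2s1, genes of other chromosomes, shared 37.2% to 46.7%. The 45.4% lies within that range. The Hnf4 element was matched in Cyp2c65 and Cyp2c68 but not in Cyp2c66, beside 0.384% of the 32851 windows of that length in the table. The TATA box was matched in 12.4% of windows and in Cyp2c55, Cyp2c65 and Cyp2c66, where the first base of the match lay at position -29, -162 and -150 from the start. The Ahr core was matched in 28.2% of windows and in Cyp2c68 alone of the 4. Of the 26 genes, 20 had a window, and TTTATG (a Cdx element, in 10.8% of windows) and TCACNCCAC (a sterol regulatory element, in 1.05%) were matched in 0 of the 20. A match is a run of letters and not a measured site.

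On the arrays, Cyp2c55, which makes hydroxylated arachidonic acid products, measured 12.51, 12.76 and 12.87 untreated and 12.17, 12.49 and 12.70 with DSS, with 5 DSS arrays below every untreated array. Its change was -0.27 ± 0.06 (adjusted p = 0.0138), and this call was among those lost without the group that stood apart. Cyp2c65 measured 10.54, 10.92 and 11.33 untreated and 10.69, 11.07 and 11.55 with DSS, which overlapped widely, and its change of 0.12 ± 0.11 was not called (adjusted p = 0.581). Cyp2c66 measured 7.50, 7.85 and 8.02 untreated and 8.09, 8.48 and 9.06 with DSS. Every DSS array lay above every untreated array, and the change was 0.70 ± 0.14 (adjusted p = 0.00628), a 1.62-fold higher level. Among the 26 genes the conditions failed to overlap for 4 lower genes and for 1 higher gene, Cyp2c66, beside 2.37% and 2.5% of all genes of that brightness.

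Cyp2c68 measured 7.16, 8.24 and 9.0 untreated and 6.02, 7.47 and 8.21 with DSS. Its arrays overlapped and spread widely within groups, and the change of -0.82 ± 0.26 was not called (adjusted p = 0.0587). It was called when DSS replicate 2 of the group with both forms (-1.07, adjusted p = 0.00415), DSS replicate 2 of passive only (-0.98, 0.0334) or untreated replicate 1 of active only (-0.96, 0.034) was left out. A probe set shared by Cyp2c40, Cyp2c67, Cyp2c68 and Cyp2c69 measured 8.37, 8.62 and 9.10 untreated and 7.41, 8.00 and 8.32 with DSS, without overlap. Its change was -0.78 ± 0.10 (adjusted p = 0.000391 over all 35557 probe sets). Cyp2c67, whose own probe set had a mean of 5.36, changed by -0.69 ± 0.14 (adjusted p = 0.00544). These 3 probe sets can take up RNA of the same genes and are not independent of one another.

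**Figure D4:**
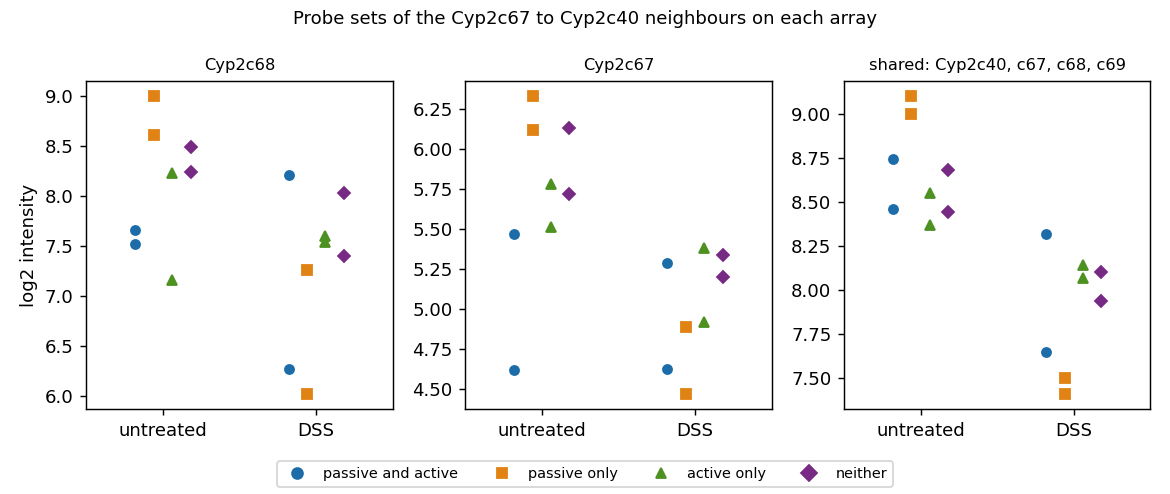
Log2 intensity on each of the 16 arrays for the probe sets of Cyp2c68, of Cyp2c67 and of the 4 genes Cyp2c40, Cyp2c67, Cyp2c68 and Cyp2c69 together, untreated at left and DSS at right, with 1 symbol per SIgA group. Only the shared probe set keeps the conditions apart, with 8.37 as the lowest untreated and 8.32 as the highest DSS value, and for each probe set the highest array is an untreated one of the passive-only group.

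Of the remaining genes with a mean of 7 or more, none was called. Cyp2w1, a P450 of developing colon and colonic tumours, measured 7.73, 8.10 and 8.49 untreated and 7.54, 7.84 and 8.10 with DSS, a change of -0.28 ± 0.09 just short of the threshold (adjusted p = 0.054). It was called, with changes of -0.33 to -0.30 and adjusted p of 0.0314 to 0.0457, when DSS replicate 1 of the group with both forms, DSS replicate 2 of passive only, untreated replicate 2 or DSS replicate 1 of active only, or untreated replicate 1 of neither was left out. Cyp3a13, a relative of the human enzyme CYP3A4 that handles many drugs in the gut, measured 9.90, 10.25 and 10.52 untreated and 9.78, 10.16 and 10.48 with DSS (change -0.15 ± 0.10, adjusted p = 0.411). Cyp2j6, which makes fatty acid epoxides, changed by 0.16 ± 0.09 (adjusted p = 0.289). These conditions overlapped.

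Members that act on sterols were not called either. Cyp51, which removes a methyl group from lanosterol on the way to cholesterol, measured 9.63, 9.90 and 10.29 untreated and 9.78, 10.22 and 10.50 with DSS (change 0.22 ± 0.11, adjusted p = 0.211). Cyp27a1, a sterol side-chain hydroxylase of bile acid synthesis, changed by -0.05 ± 0.05 (adjusted p = 0.635). Cyp39a1, an oxysterol hydroxylase, changed by -0.05 ± 0.09 (adjusted p = 0.828). The change of Cyp20a1, whose substrate is unknown, was 0.14 ± 0.07 (adjusted p = 0.227).

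Families without a gene of that brightness included Cyp1, the classic targets of the Ahr receptor, with Cyp1a1, Cyp1a2 and Cyp1b1, of which Cyp1b1 changed by 0.02 ± 0.09. Cyp26b1, which breaks down retinoic acid, changed by 0.05 ± 0.10. The enzymes that open or shape bile acid synthesis in liver were represented by Cyp7b1 (mean 4.37, change -0.02 ± 0.11) and Cyp8b1 (5.98, -0.12 ± 0.10), and steroid hormone synthesis by Cyp11b2 (6.39, -0.01 ± 0.08), Cyp17a1 (5.26, -0.07 ± 0.08) and Cyp21a1 (5.62, 0.05 ± 0.08). Cyp46a1, which hydroxylates cholesterol in brain, changed by 0.01 ± 0.12 at a mean of 6.23. None of these was called.

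Among the 61 genes with a mean under 7, 5 fell and 1 rose (9.84%), beside 7.89% called among all genes that dim (5.57% lower and 2.32% higher). The gene that rose was Cyp4f18, the leukotriene B4 hydroxylase of neutrophils and other myeloid cells. It measured 5.40, 5.73 and 6.01 untreated and 6.01, 6.12 and 6.30 with DSS, with every DSS array above every untreated one before rounding. Its change was 0.39 ± 0.08 (adjusted p = 0.0079), and 0.34 (adjusted p = 0.0756) without the group that stood apart and replicate 1 of untreated active only. The neutrophil markers given above rose on the same arrays, and their part in the Cyp4f18 value was not tested.

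The other 5 dim genes that were called fell. They were Cyp2c67 (above), the fatty acid hydroxylases Cyp4a10 (-0.46 ± 0.08, adjusted p = 0.00183) and Cyp4a12b (-0.28 ± 0.09, adjusted p = 0.049), Cyp2b9 (-0.30 ± 0.08, adjusted p = 0.0307) and Cyp2c54 (-0.27 ± 0.08, adjusted p = 0.0329). Apart from Cyp2c67, each belonged to the 10 dim genes whose arrays were highest in the untreated group that stood apart. Without that group, and so as the mean over the other SIgA groups, the changes were -0.16 for Cyp4a10 (adjusted p = 0.454), -0.06 for Cyp4a12b (0.897), -0.21 for Cyp2b9 (0.316) and -0.16 for Cyp2c54 (0.338). None of these calls remained. That of Cyp2c67 became -0.90 (adjusted p = 0.00169). Leaving out single arrays also ended the calls of Cyp2b9 in 8, of Cyp2c54 in 11 and of Cyp4a12b in 12 of the 16 fits.

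DSS effects within each SIgA group rest on 2 arrays against 2. In the group with both forms of SIgA 6 of the 26 brighter P450 genes fell and none rose, beside 1.98% called lower among all genes of that brightness. The counts of lower genes were 3 with passive SIgA only (beside 1.96%), 1 with active only (beside 0.671%) and 7 with neither (beside 1.17%), and none rose in these groups either. Cyp4b1, Cyp2s1 and Cyp2d13 were called in 3 of the 4 groups each. Differences between these counts were not tested, and the interaction tests that bear on them are given below.

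These counts moved when single arrays were left out. In the group with both forms, 2 genes were called without untreated replicate 1 and 1 without untreated replicate 2 or DSS replicate 2. With passive only, 1 was called without replicate 1 and 0 without replicate 2 of either condition, and 5 without either untreated array of active only. With active only, 0 were called without untreated or DSS replicate 1, and with neither 1 was called without any 1 of its 4 arrays.

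**Figure D5:**
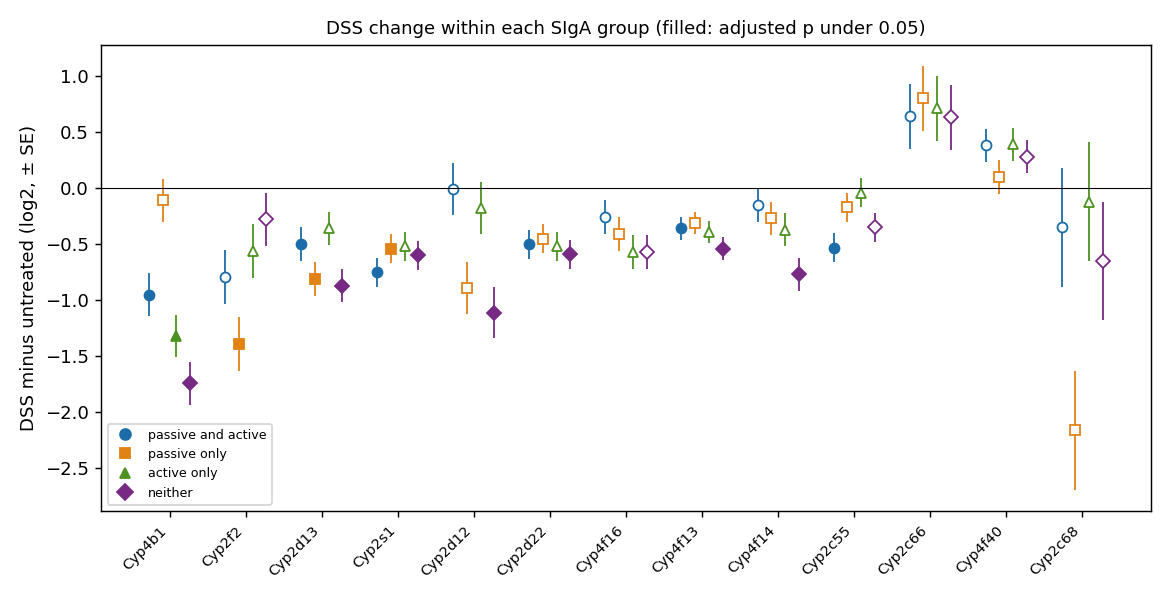
DSS effect within each SIgA group (y axis, log2, bars ± SE) for the 12 called P450 genes and Cyp2c68, with filled symbols where the adjusted p was under 0.05. Cyp4b1 ranges from -1.74 with neither form of SIgA to -0.11 with passive only, while Cyp2d22 stays between -0.59 and -0.45.

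Of the 12 called genes, Cyp4b1 had the widest range of changes across the groups. Its group means untreated and with DSS were 8.48 ± 0.07 (SD, n = 2) and 7.52 ± 0.41 with both forms, 8.35 ± 0.12 and 8.24 ± 0.03 with passive only, 8.80 ± 0.18 and 7.48 ± 0.27 with active only, and 9.11 ± 0.04 and 7.37 ± 0.29 with neither. The changes were -0.95 ± 0.19 (SE), -0.11 ± 0.19, -1.32 ± 0.19 and -1.74 ± 0.19, called in all groups but passive only. The interaction of DSS with passive SIgA was -1.0 ± 0.19 (without minus with passive SIgA) and the three-way term -1.27 ± 0.39, and neither was called (adjusted p = 0.0827 and 0.374). Within Pigr-/- offspring, which leaves out the group that stood apart, the interaction with passive SIgA was -1.63 ± 0.27 (adjusted p = 0.478). A difference in its DSS effect between SIgA groups therefore did not pass the test.

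Other genes varied as well. Cyp2f2 changed by -1.39 ± 0.24 with passive only (adjusted p = 0.00765) and by -0.79, -0.56 and -0.28 with both, active only and neither. No interaction was called for Cyp2f2 in limma. The terms were 0.67 ± 0.24 for DSS by passive SIgA (adjusted p = 0.453) and -0.16 ± 0.24 for DSS by active SIgA (0.791). The three-way term was 0.88 ± 0.47 (0.815). Cyp2d12 changed by -1.11 ± 0.23 with neither (adjusted p = 0.0365), and by -0.01, -0.89 and -0.18 with both, passive only and active only. The interaction of DSS with active SIgA for Cyp2d12 was -0.90 ± 0.23 and was not called (adjusted p = 0.104). Within offspring of Pigr-/- dams it was -0.92 ± 0.33 (adjusted p = 0.924). Cyp2c66 was close to even across the groups, with 0.64, 0.80, 0.71 and 0.63 in the same order of both, passive only, active only and neither, and was called in none of them singly.

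Effects of SIgA itself are given as without minus with. For passive SIgA averaged over all groups, 0 of the 87 P450 genes were called by limma (beside 0.963% of all genes), and 14 had an unadjusted p under 0.05, beside 15.4% of all genes. The smallest p values were those of Cyp4a10 (-0.32 ± 0.08, adjusted p = 0.072), Cyp2d12 (0.45 ± 0.12, 0.0844) and Cyp2d11 (0.32 ± 0.09, 0.0964). Over the 3 pairs of groups that do not hold the one that stood apart, the differences were -0.05 ± 0.09, 0.46 ± 0.13 and 0.30 ± 0.10, and limma again called 0, beside 0.0502% of all genes, with 5 at an unadjusted p under 0.05, beside 8.07%. The count became 2 without DSS replicate 2 of the group with both forms and 1 without untreated replicate 1 of active only. Dam genotype goes with the litter, so that passive SIgA and litter cannot be told apart.

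In untreated mice 1 gene was called for passive SIgA, beside 2.58% of all genes. This was Cyp4a10, with -0.67 ± 0.11 (adjusted p = 0.00846). Cyp4a10 measured 5.92 and 6.07 in the untreated group with both forms and 4.39 to 4.88 on the other 14 arrays. In the untreated pair that does not hold that group (passive only against neither) the difference was -0.20 ± 0.16 (adjusted p = 0.897). The count was 2 without untreated replicate 1 of the group with both forms or either DSS array of passive only, 3 without either untreated array of active only, and 4 without either DSS array of the group with both forms.

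For active SIgA averaged over all groups, Cyp4a12b (-0.51 ± 0.09, adjusted p = 0.0165) and Cyp4a10 (-0.39 ± 0.08, adjusted p = 0.0317) were lower without it, beside 1.37% called among all genes. Both are among the genes highest in the untreated group that stood apart. Over the 3 pairs of groups without it the differences were -0.32 ± 0.10 (adjusted p = 0.799) and -0.11 ± 0.09 (adjusted p = 0.806), and limma called 0 P450 genes, beside 1 of all genes tested, with 10 at an unadjusted p under 0.05, beside 5.43%. Leaving out single arrays gave counts of 0 to 5 and changed the count in 12 of the 16 fits. It was 0 without DSS replicate 2 of passive only or of active only or DSS replicate 1 of neither, 4 without DSS replicate 2 of the group with both forms and 5 without untreated replicate 2 of active only.

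In untreated mice 10 of the 87 genes were called for active SIgA (11.5%, beside 7.49% of all genes, 5.92% lower and 1.57% higher). Lower without active SIgA were Cyp4a10 (-0.75), Cyp4a12b (-0.68), Cyp2c39 (-0.74), Cyp7b1 (-0.63), Cyp2g1 (-0.48), Cyp4a12a (-0.93), Cyp2j12 (-0.48) and Cyp17a1 (-0.42), with adjusted p of 0.00195 to 0.0473. Higher without it were Cyp2d12 (0.60 ± 0.16, adjusted p = 0.0426) and Cyp2c67 (0.73 ± 0.20, adjusted p = 0.0433). In the pair without the group that stood apart (active only against neither), none of the 10 was called, with an adjusted p of 0.411 or more, and in limma none of the 19938 genes was. At an unadjusted p under 0.05 there were 10 of the 87 P450 genes, beside 12% of all genes. This pair has 2 arrays a side and larger standard errors. It also holds replicate 1 of untreated active only, the array with the highest mean of the dim P450 genes. The differences there were 0.73 ± 0.23 for Cyp2d12, -0.39 ± 0.16 for Cyp17a1 and -0.41 ± 0.18 for Cyp2j12, close to or above those over both pairs. They were smaller for Cyp4a10 (-0.28 ± 0.16), Cyp4a12b (-0.29 ± 0.17), Cyp2c67 (0.28 ± 0.28), Cyp4a12a (-0.45 ± 0.32), Cyp2c39 (-0.43 ± 0.21), Cyp7b1 (-0.40 ± 0.21) and Cyp2g1 (-0.31 ± 0.16). The count rose to 25 without untreated replicate 2 of active only. It was 6 and 5 without untreated replicate 1 and 2 of the group with both forms, 5 and 4 without those of passive only, 3 without untreated replicate 1 of active only, and 6 and 2 without those of neither.

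After DSS, no P450 gene was called for either form of SIgA by limma, beside 0 of the 19938 genes for passive and 1 for active SIgA (0.00502%). At an unadjusted p under 0.05 there were 3 of the 87 P450 genes for passive SIgA, beside 3.95% of all genes, and 6 for active SIgA, beside 1.66%. The smallest p for passive SIgA was that of Cyp2d11 (0.42 ± 0.12, adjusted p = 0.763), and for active SIgA that of Cyp2c39 (0.56 ± 0.15, adjusted p = 1).

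The interaction of DSS with passive SIgA called 0 P450 genes in limma, beside 0.115% of all genes, and 13 of the 87 had an unadjusted p under 0.05, beside 8.14% of all genes. The three-way term called 0, beside 0.0602%, and 9 had an unadjusted p under 0.05, beside 6.79%. After Cyp4b1, the smallest p values for DSS by passive SIgA were those of Cyp4a10 (0.70 ± 0.16, adjusted p = 0.129) and Cyp2a22 (-0.55 ± 0.15, 0.277), and the count became 1 when either DSS array of the group with both forms was left out. The interaction of DSS with active SIgA called 1 gene, Cyp2c39 (1.30 ± 0.21, adjusted p = 0.0141), beside 0.843% of all genes. Without DSS replicate 1 of the group with both forms or untreated replicate 2 of active only it called 4. It called 0 without untreated replicate 2 of passive only or of neither, or DSS replicate 2 of neither. Within offspring of Pigr-/- dams, where the group that stood apart has no part, the Cyp2c39 term was 0.84 ± 0.30 (adjusted p = 0.924), and in limma neither interaction called any of the 19938 genes without that group. At an unadjusted p under 0.05 there were then 6 of the 87 P450 genes for DSS by passive SIgA, beside 4.27% of all genes, and 8 for DSS by active SIgA, beside 3.71%.

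Genes that work beside the P450s were taken from lists by role. Their counts stand beside 13.1% called among all genes and 18.4% among genes with a mean of 7 or more. The lists were not compared again without the group that stood apart. In that fit 6.07% of all genes were called. Of a list of electron donors and other partners of P450s, none of 6 measured genes was called for the averaged DSS effect. Among them were cytochrome b5 (Cyb5a, 0.09 ± 0.09, and Cyb5b, 0.09 ± 0.07) and the partner Pgrmc1 (-0.08 ± 0.07). The reductases Por and Fdxr were not among the genes tested, so their change is not known. Of 12 heme genes, 1 rose and 2 fell: Hmox1, which opens heme, by 0.50 ± 0.10 (adjusted p = 0.00647), and Urod, a step of heme synthesis, by -0.25 ± 0.08 (adjusted p = 0.0491) and Blvrb, a biliverdin reductase, by -0.22 ± 0.06 (adjusted p = 0.0297). Medians over these lists were -0.04 and 0.02, beside -0.004 over all genes.

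Of 23 receptors and regulators of P450 genes, 1 rose and 1 fell, with a median change of -0.04. The bile acid receptor Nr1h4 measured 8.93, 9.49 and 9.83 untreated and 9.77, 9.99 and 10.23 with DSS (change 0.55 ± 0.10, adjusted p = 0.00261). The vitamin D receptor Vdr measured 12.03, 12.24 and 12.43 untreated and 11.69, 11.82 and 11.97 with DSS, without overlap (change -0.40 ± 0.06, adjusted p = 0.000387). Hnf4a, a regulator of many gut and liver P450 genes, changed by -0.15 ± 0.05 (adjusted p = 0.0523) and Nr1i3 by -0.22 ± 0.07 (adjusted p = 0.0615), and neither was called.

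Eicosanoid enzymes moved in both directions, with 2 of 12 higher and 2 lower (median -0.05). Ptgs2, the inducible cyclooxygenase, measured 6.84, 7.25 and 7.99 untreated and 8.21, 8.88 and 9.31 with DSS, without overlap (change 1.53 ± 0.16, adjusted p = 2.85e-05). Ptges, a prostaglandin E synthase, rose by 0.32 ± 0.06 (adjusted p = 0.00409). Hpgd, which inactivates prostaglandins, fell by 0.55 on the log2 scale (adjusted p = 7.65e-05) and the epoxide hydrolase Ephx1 by 0.31 (adjusted p = 0.031). Of 2 P450 genes not named Cyp, the prostacyclin synthase Ptgis rose (0.31 ± 0.07, adjusted p = 0.0108) and the thromboxane synthase Tbxas1 was not called (0.08 ± 0.11).

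Of 16 sterol synthesis enzymes around Cyp51, 3 rose and 2 fell (median 0.10). Fdps (0.24 ± 0.06, adjusted p = 0.0186) and Pmvk (0.21 ± 0.06, adjusted p = 0.0309), early steps of the pathway, rose, and the late reductases Dhcr7 (-0.19 ± 0.05, adjusted p = 0.0157) and Tm7sf2 (-0.25 ± 0.07, adjusted p = 0.0297) fell. Of 17 genes of retinoid and vitamin D handling, 3 rose and 6 fell (median -0.01). Enzymes on the way from retinol to retinoic acid moved in both directions: Aldh1a3 (1.41 ± 0.09, adjusted p = 7.04e-07), Dhrs9 (1.41 ± 0.10, adjusted p = 1.35e-06) and Rdh10 (0.42 ± 0.08, adjusted p = 0.00468) rose, and Aldh1a1 (-0.42 ± 0.07, adjusted p = 0.00228) fell. Lrat, which stores retinol as esters (-0.52 ± 0.06, adjusted p = 5.47e-05), and the calcium channel Trpv6 (-1.07 ± 0.08, adjusted p = 3.18e-06) fell. The other genes of this list that fell were Rbp2, S100g and Vdr.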

How the data were processed

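Each of the 16 arrays was hybridised with RNA of colonic epithelial cells, a pool of 3 mice, and only RNA of integrity number 8.5 or above was used, per the labels' protocols. The deposited values are log2 intensities made by the authors with RMA, per the submitters' processing notes, which name no version. Values ran from 1.857 to 14.938, with medians of 6.678 to 6.825 per array. Of 35557 probe sets, 21789 named 1 gene, 1621 several and 12147 none in the platform annotation; for each gene the one-gene probe set with the highest mean was kept, which left 19938 genes.

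A mean per group was fitted with limma 3.58.1 in R 4.3.3 (moderated, two-sided test with 8 residual degrees of freedom and 5.03 from the prior, Benjamini-Hochberg over 19938 genes, called at an adjusted p under 0.05). Replicates are separate pools per the labels, so p-values measure the spread between pools. The number of arrays limits precision: the median standard error was 0.0752 for the averaged DSS effect and 0.15 within 1 SIgA group. Tested on simulated data for the averaged DSS effect over 19938 genes, the fit recovered 80% of changes of 0.5 log2 and 100% of changes of 1 log2, with 15 false calls. The simulated noise was independent between genes and arrays, and far fewer genes were changed than were called in these data. These rates therefore need not hold for the arrays themselves. Named genes were the called members, the member with the highest mean of each family, up to 3 with the smallest p for SIgA terms, and up to 4 per list of partner genes. Members, lists and rules were chosen with earlier results of these data known. Gene order and windows came from RefSeq (GRCm38). The alternatives were other variance models, array weights, a replicate block, centring, quantile normalization, a filter on dim genes, another threshold and leaving out arrays. The cut on the mean level of bright genes was also moved.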

Additional observations from a re-analysis of the deposited data

Results flagged for a closer look

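For Cyp2c39, an epoxygenase of the Cyp2c subfamily with a mean of 4.55, the DSS effect differed between offspring without and with active SIgA by 1.30 on the log2 scale (interaction test in limma, adjusted p = 0.0141). The changes with DSS were -1.32 with both forms and -0.28 with active SIgA only, and 0.44 with passive only and 0.56 with neither, so that the sign differed in 2 against 2 groups. The untreated arrays with both forms measured 5.39 and 5.36, above all other 14 arrays, which ran from 3.81 to 5.09. The call was lost without untreated replicate 2 of passive only or of neither or DSS replicate 2 of neither. In the untreated pair without the group that stood apart, active only against neither, the difference in Cyp2c39 was -0.43 ± 0.21 (adjusted p = 0.419).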

How the results depend on the processing

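The count of bright P450 genes lower with DSS was 10 to 12 without single arrays and 8 to 12 over all alternatives, from 10. The 8 came from counting only genes with a mean of 8 or more, which drops Cyp2d12 and Cyp2d13, and not from lost calls. Without the untreated group with both forms of SIgA it was 9. The count of higher genes was 1 to 2 without single arrays, 1 with arrays centred on the median, 1 without the untreated group with both forms of SIgA and 0 without that group and replicate 1 of untreated active only. None of the DSS changes of the genes called or recomputed singly reversed its sign. Among bright genes that were not called, Cyp2d10 went from 0.01 to -0.07 and Cyp2d26 from 0.06 to -0.01 without the group that stood apart, and among dim ones Cyp2c39, for example, from -0.15 to 0.24. The values without that group are means over the other SIgA groups. DSS changes within SIgA groups moved more. Without single arrays the counts were 1 to 6 with both forms, 0 to 5 with passive only, 0 to 1 with active only and 1 to 7 with neither. With passive only the count was 5 with a trend in the prior variance, without the dimmest 30% of genes and at an adjusted p under 0.1, and 6 with array weights, from 3; with active only it was 4, 4 and 4 under the first 3 of these and 5 with quantile normalization, from 1; with neither it was 3 without moderation, from 7. The counts for passive SIgA were 0 to 2 without single arrays, 1 with centring, 2 with quantile normalization and 3 at an adjusted p under 0.1, from 0; in untreated mice they were 1 to 4, 4 with the trend, 2 without moderation, 5 with centring, 10 with quantile normalization, 0 without the dimmest 30% and 9 at 0.1, from 1. The counts for active SIgA were 0 to 5 without single arrays and 0 without moderation, with quantile normalization or without the dimmest 30%, from 2; in untreated mice they were 2 to 25, 2, 6 and 0 under the same settings and 16 at 0.1, from 10. For DSS by passive SIgA they were 0 to 1, 2 with centring and 1 at 0.1, from 0, and for DSS by active SIgA 0 to 4, 0 without moderation, 2 with centring, 0 without the dimmest 30% and 2 at 0.1, from 1. Leaving out the dimmest 30% of genes also removes Cyp4a10, Cyp4a12b and Cyp2c39, so these genes could not be called in that fit. Of the 10 genes called for active SIgA in untreated mice, only Cyp2d12 stayed in it. The counts of 0 there are therefore no test of the genes removed. Both SIgA effects after DSS and the three-way term had 0 called members under every alternative run. In pairs without the untreated group with both forms (chosen after seeing the data) 0 members were called for passive SIgA and for active SIgA, averaged or in untreated mice, and for both interactions of DSS. Apart from genes that left a count, the cause of these shifts was not tested. Centring and quantile normalization moved the median DSS change of all genes by -0.023 and 0.003.

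Replicate numbers gave 28 pairs of groups, and deviations of same-numbered arrays correlated at -0.30 to 0.67, above 0.1 in 14. These values do not settle whether the numbers pair the arrays. The main fit took no block. With the replicate number as a block the counts were 5 for DSS with passive only, 2 for DSS with active only, 1 for passive SIgA, 4 for passive SIgA in untreated mice and 3 for DSS by active SIgA, and Cyp2c68 was called (adjusted p = 0.0271). Cyp2c68 was also called with the trend (0.0412) and with array weights (0.0352), and Cyp2w1 with the trend (0.0396), centring (0.035), quantile normalization (0.0179) and without the dimmest 30% (0.0427).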

Other observations

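Probe sets shared by several P450 genes were outside the comparisons of single genes. They were not fitted again without the group that stood apart, and how their calls depend on it was not tested. Of those tested over all 35557 probe sets, 1 shared by Cyp4a10, Cyp4a31 and Cyp4a32 measured 4.37, 4.46 and 5.31 (lowest, median and highest) untreated and 4.13, 4.36 and 4.58 with DSS, a change of -0.33 ± 0.08 (adjusted p = 0.0221). A probe set of Cyp3a41a, Cyp3a41b and Cyp3a44 changed by -0.46 ± 0.12 (adjusted p = 0.0319). Its untreated values were 3.76, 4.23 and 6.07 (lowest, median and highest) and its DSS values 3.95, 4.05 and 4.14, so the groups overlapped. A probe set of the same 3 genes and Cyp3a11 also changed by -0.46 ± 0.12 (adjusted p = 0.0309). It measured 4.10, 4.45 and 6.24 untreated and 4.08, 4.20 and 4.41 with DSS. These Cyp3a probe sets can take up RNA of the same genes and are not independent of one another. The own probe sets of Cyp3a44 (-0.03 ± 0.13) and Cyp3a11 (-0.13 ± 0.07) were not called. Of the Cyp4a genes above, Cyp4a10 was called lower on its own probe set and Cyp4a31 (0.01 ± 0.09) was not called. The probe sets shared by Cyp2a4 and Cyp2a5 (-0.10 ± 0.07) and by Cyp3a25, Cyp3a57 and Cyp3a59 (-0.03 ± 0.09) were not called.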
